A study of Mus musculus with 18 samples.

Results

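The promoter of Arc (activity-regulated cytoskeleton-associated protein) was followed across 16 histone mark libraries of the mouse cerebellum. It was chosen by name, as the 1 row called arc among the 24 promoters of the authors' table of scores around transcription start sites (TSSs), which places it on chromosome 15 at position 74503000 (build mm9, per the submitters' processing notes). Arc is an immediate early gene: its transcription starts quickly when neurons are excited, with no need for new protein synthesis. The protein acts at synapses, where it takes part in the removal of AMPA-type glutamate receptors from the surface and can assemble into virus-like capsids that carry RNA. Trimethylated lysine 4 of histone H3 (H3K4me3) marks the start of active or poised genes, and acetylated lysines 9 and 14 (H3K9/14ac) and 27 (H3K27ac) mark active promoters, H3K27ac also active enhancers.

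Chromatin of whole cerebella was immunoprecipitated and sequenced from wild-type (WT) mice and from conditional knockouts (cKO) of Chd4, which encodes a nucleosome-remodeling ATPase of the NuRD complex. WT and cKO mice of postnatal day 22 (P22) were compared for the 3 marks, and WT mice of postnatal day 6 (P6) were added for H3K4me3 and H3K9/14ac, with 2 libraries in each of the 8 groups. The labels name neither the Cre driver, the cells that lost Chd4 nor the strain. They also do not say whether replicates are different animals, so the spread behind a p-value here is that between libraries, which may be technical. The main tests within a mark pooled this spread completely over all promoters tested, so their p-values do not rest on the libraries at Arc alone. Promoters of a library shifted together between replicates, which the pooling ignores, so these p-values are likely too small. Tests with each promoter's own spread are given beside them. These were ordinary t tests on the limma linear fit, without moderation, although their adjusted p-values carry the same name below. The score is the authors' own unit, runs from -0.82 to 67 over the table, and has no stated scaling or read depth, so counting error is unknown and no interval based on counts can be given. How the 24 promoters were chosen is not given either, so their shares are not genome-wide shares. Chd4 is not in the table, so the genotype could not be checked on it, and the table holds 0 of the 30 other activity-regulated genes that were looked for.

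**Figure D1:**
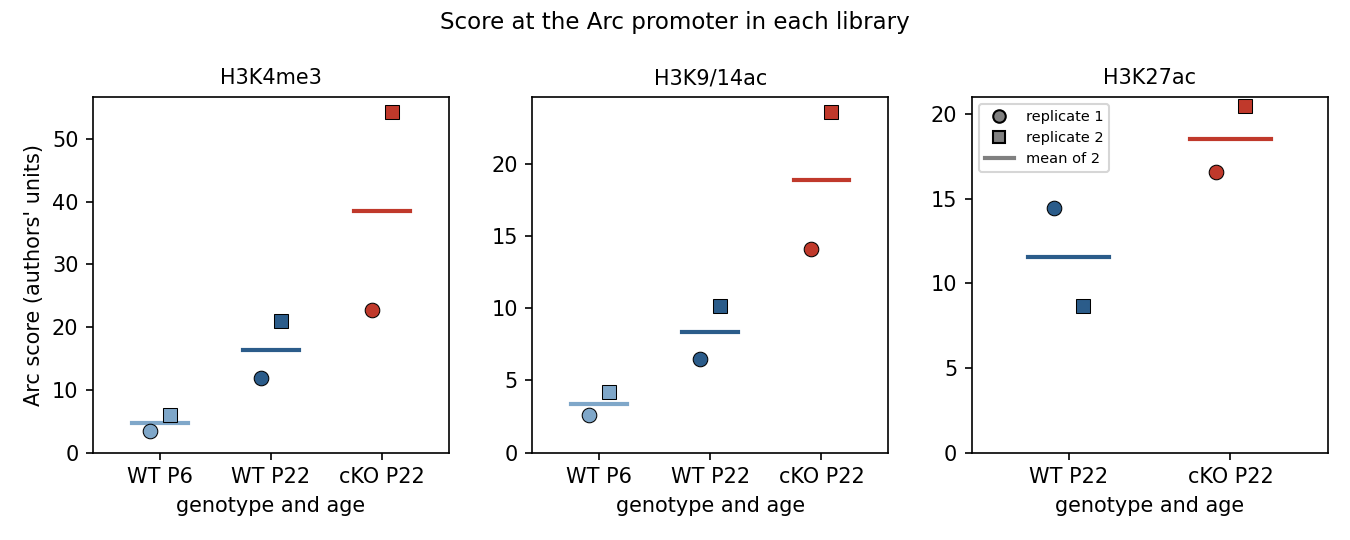
Score at the Arc promoter (vertical axis, authors' units, own scale in each panel) in each library, by genotype and age (horizontal axis). Circles are replicate 1, squares replicate 2 and bars the mean of 2 libraries. In H3K4me3 and H3K9/14ac the libraries of the 3 groups do not overlap, and in H3K27ac the cKO libraries lie above the WT libraries.

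Whether the marks at Arc change while the cerebellum matures was asked by comparing WT mice at P6 and P22. H3K4me3 at Arc scored 3.50 and 5.98 in the P6 libraries and 11.9 and 20.9 in the P22 libraries, replicate 1 given before replicate 2 here and below. Both older libraries lay above both younger ones, which held at 7 of the 24 promoters of the table (29.2%), with the reverse at 6 (25%). The mean went from 4.74 ± 1.75 to 16.4 ± 6.35 (SD, n = 2 each), 3.46 times the P6 level, with single pairs of libraries between 1.99 and 5.97 times. On the log2(score + 2) scale, which understates changes of low scores, H3K4me3 rose by 1.43 ± 0.43 (SE), with limma adjusted p = 0.00543 over the 19 promoters tested. Arc was 1 of 2 promoters called higher at P22 (10.5% of those tested), against 3 called lower (15.8%). The median change of the other 18 promoters was 0.07. Arc ranked 2 of 19 by size of rise, and the promoter next below it was Cpne7, a copine gene, at 0.72 (limma adjusted p = 0.227). Chromatin came from whole cerebella, so more cells carrying a mark and more mark per cell cannot be told apart in this or any later comparison.

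H3K9/14ac at Arc moved the same way. It scored 2.62 and 4.17 at P6 and 6.48 and 10.2 at P22, so the groups again did not overlap, as at 6 of 24 promoters in that direction (25%) and 9 in the other (37.5%). The mean went from 3.40 ± 1.10 to 8.34 ± 2.62 (SD, n = 2 each), 2.46 times the P6 level. The rise of 0.93 ± 0.28 (SE) on the log2(score + 2) scale passed with limma adjusted p = 0.0116 over 23 promoters. Arc was the 1 promoter called higher (4.35% of those tested), 2 were called lower (8.7%), and the other 22 had a median change of -0.07. The series holds no H3K27ac library at P6.

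With each promoter's own spread, neither age call passed (limma adjusted p = 0.260 for H3K4me3 and limma adjusted p = 0.439 for H3K9/14ac). These age calls also depended on single libraries when scores were used as deposited. For H3K4me3 the change was 1.16 without P6 replicate 1 (limma adjusted p = 0.126) and 1.07 without P22 replicate 2 (limma adjusted p = 0.182). For H3K9/14ac it was 0.72 without P6 replicate 1 (limma adjusted p = 0.384) and 0.67 without P22 replicate 2 (limma adjusted p = 0.411). In both marks and both ages replicate 2 scored above replicate 1 at Arc, by 1.57 to 1.75 times. The other promoters of the table differed between replicates in the same direction, with medians from 0.15 to 0.24 on the log2(score + 2) scale, against 0.42 to 0.72 at Arc.

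**Figure D2:**
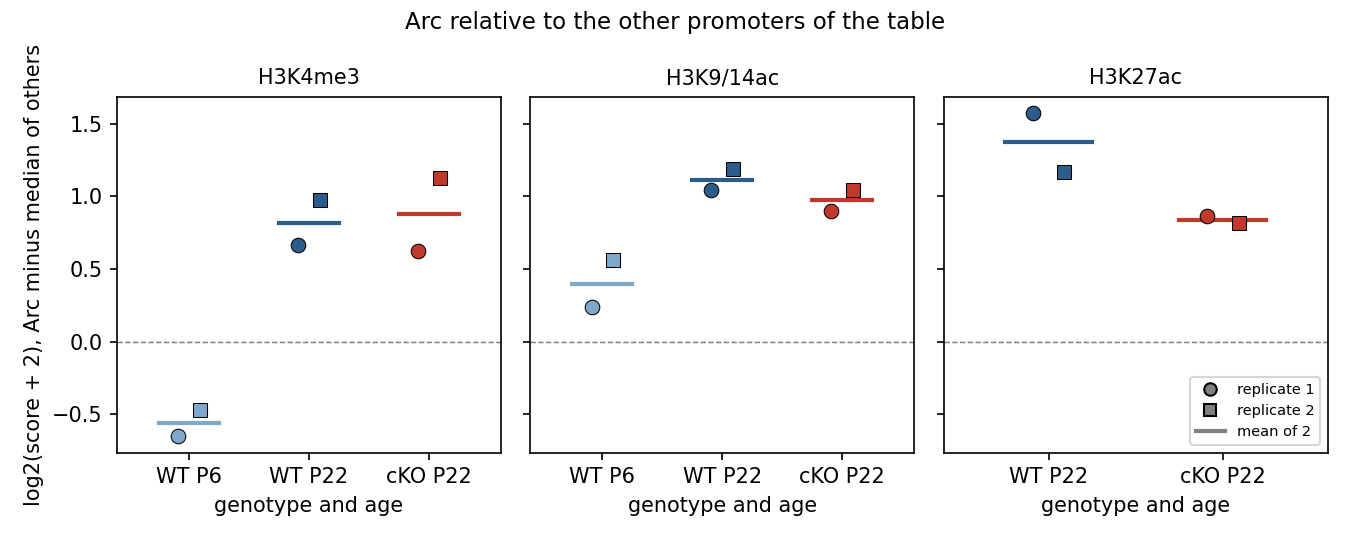
Level of Arc on the log2(score + 2) scale minus the median of the other promoters that pass the filter of the mark (vertical axis), in each library, by genotype and age (horizontal axis). Circles are replicate 1, squares replicate 2, bars the mean of 2 libraries and the dashed line the median promoter. Arc lies below the line in H3K4me3 at P6 and above it in all other groups, and in H3K27ac both cKO libraries lie below both WT libraries.

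Measured against the other promoters of the same library, the rise of Arc with age held more evenly. In H3K4me3 the level of Arc lay 0.65 and 0.47 below the median of the 17 other promoters that passed the filter in the P6 libraries, on the log2(score + 2) scale. At P22 it lay 0.66 and 0.97 above that median. In H3K9/14ac Arc lay 0.24 and 0.56 above the median of 21 other promoters at P6, and 1.04 and 1.19 above it at P22. Arc thus passed from the middle of the table to its top. By H3K4me3 it ranked 14 and 13 of 24 in the P6 libraries and 4 and 3 at P22, and by H3K9/14ac it ranked 11 and 10 at P6 and 1 in both P22 libraries.

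With each library centred on its median, H3K4me3 at Arc rose by 1.26 ± 0.21 (SE) between P6 and P22, with limma adjusted p = 0.00430, and H3K9/14ac by 0.77 ± 0.12, with limma adjusted p = 0.00487. Centring gave 4 promoters higher and 6 lower in H3K4me3 (21.1% and 31.6%), and 1 higher, Arc, and 5 lower in H3K9/14ac (4.35% and 21.7%). Without each of the 4 libraries in turn, the centred change at Arc ran from 1.14 to 1.38 in H3K4me3, with limma adjusted p from 0.0138 to 0.0330. In H3K9/14ac it ran from 0.66 to 0.87, with limma adjusted p from 0.00557 to 0.0391. Centring takes the median promoter of the table as unchanged, and whether it is was not tested.

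**Figure D3:**
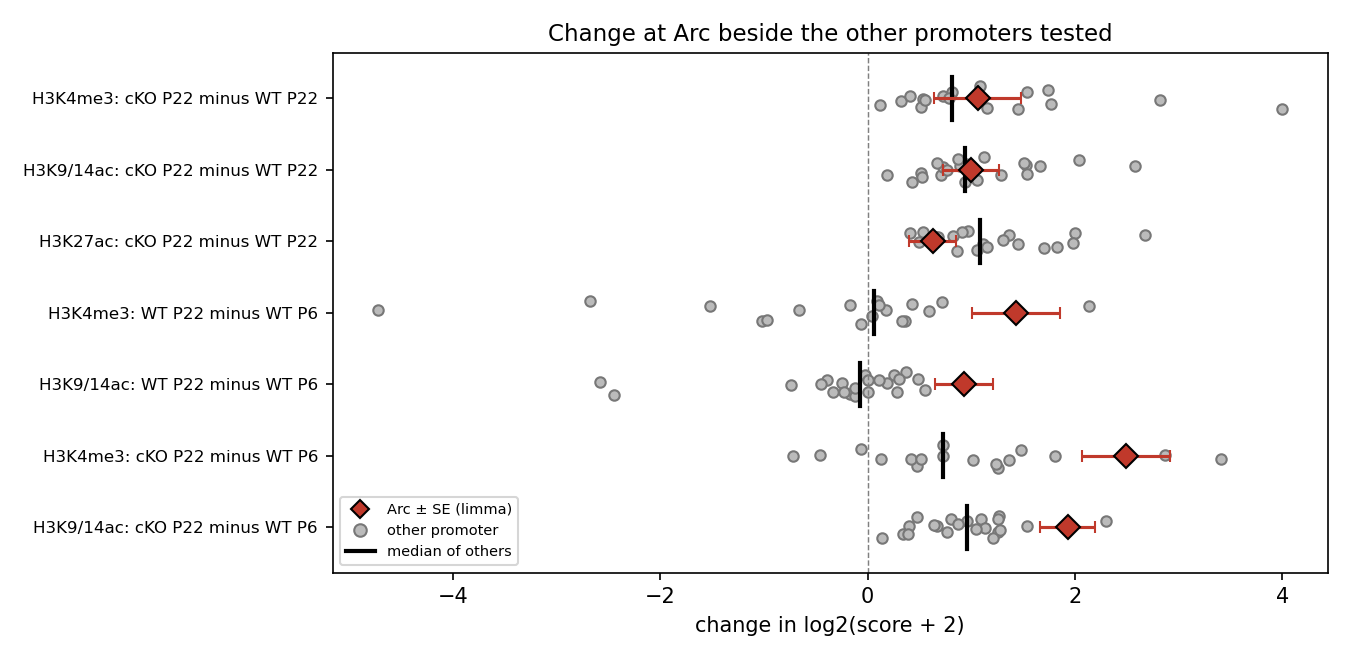
Change in log2(score + 2) (horizontal axis) at Arc (diamond, with the SE from limma) and at each other promoter tested (grey points, spread vertically for legibility) in the 7 comparisons (vertical axis), with the median of the other promoters as a black line. Arc stands far to the right of that median with age, near it in the cKO for H3K4me3 and H3K9/14ac, and to its left for H3K27ac.

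The next comparison asked how the marks at Arc differ at P22 when Chd4 is lost. H3K4me3 at Arc scored 22.7 and 54.2 in the cKO libraries, against 11.9 and 20.9 in WT. The lower cKO library stood just above the higher WT library, and the cKO libraries were farther apart than all WT libraries of the mark. The mean was 38.5 ± 22.3 in the cKO against 16.4 ± 6.35 in WT (SD, n = 2 each), 2.34 times the WT level. On the log2(score + 2) scale H3K4me3 rose by 1.06 ± 0.42 (SE), with limma adjusted p = 0.0304 and a 95% interval from 0.21 to 1.91. This was a common outcome in the table: 9 of 18 promoters tested were called higher (50%), and at 16 of 23 the cKO libraries were both higher than either WT library (69.6%). Without WT replicate 1 the calls numbered 5. Arc ranked 9 of 18 by size, between the promoter listed as clcf at 1.08 and Cplx3, a gene of the synaptic complexin family, at 0.81, and the other 17 had a median of 0.81.

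The H3K4me3 call rested on 2 of the 4 libraries. The change was 0.70 without WT replicate 1 (limma adjusted p = 0.384) and 0.47 without cKO replicate 2 (limma adjusted p = 0.500), while without cKO replicate 1 it was 1.65. It also missed the threshold with no filter on low scores (limma adjusted p = 0.0832). The same held in a fit of the 2 groups alone (limma adjusted p = 0.0513) and with a pseudocount of 20 (limma adjusted p = 0.142). It held too without a log scale (limma adjusted p = 0.207) and with each promoter's own spread (limma adjusted p = 0.268). Of 8 such alternatives, centring among them, 2 kept the call. Between the 2 cKO libraries Arc differed by 1.19 on the log2(score + 2) scale, or 2.39 times. None of the 22 other promoters had a larger gap in that direction, and their median gap was 0.67.

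H3K9/14ac at Arc scored 14.1 and 23.6 in the cKO, against 6.48 and 10.2 in WT, with no overlap. The mean went from 8.34 ± 2.62 in WT to 18.9 ± 6.73 in the cKO (SD, n = 2 each), 2.27 times the WT level. On the log2(score + 2) scale the rise was 1.00 ± 0.27 (SE), with limma adjusted p = 9.2e-04. With each promoter's own spread it did not pass (limma adjusted p = 0.119). Here 18 of 22 promoters tested were called higher (81.8%) and groups did not overlap at 22 of 23 (95.7%), so Arc was again one of many, although without WT replicate 1 the calls numbered 11. Its rank by size of change was 10 of 22, next to Smoc1 at 1.06 and Syde1 at 0.95, with a median of 0.94 over the other 21. Without WT replicate 1 the change was 0.74 (limma adjusted p = 0.0662), and without cKO replicate 2 it was 0.66 (limma adjusted p = 0.0240).

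H3K27ac at Arc also rose in the cKO, by 0.63 on the log2(score + 2) scale. It scored 14.4 and 8.63 in WT and 16.6 and 20.4 in the cKO, with 2.13 score units between the highest WT and the lowest cKO library. The mean went from 11.5 ± 4.10 to 18.5 ± 2.74 (SD, n = 2 each), 1.60 times the WT level. The rise of 0.63 ± 0.23 (SE) passed with limma adjusted p = 0.0103. With each promoter's own spread it did not pass (limma adjusted p = 0.219). Of the 21 promoters tested 20 were called higher (95.2%), and groups did not overlap at 22 of 23 (95.7%). Arc ranked 18 of 21, between Oprl1, the nociceptin receptor gene, at 0.66 and Pde1b, a calcium-dependent phosphodiesterase gene, at 0.53, and the other 20 had a median of 1.08. In WT, replicate 2 lay below replicate 1 at Arc by 0.63 on the log2(score + 2) scale, the widest fall of all 23 promoters, whose other members had a median of -0.11. Without WT replicate 1 the change was 0.94, and without WT replicate 2 it was 0.31 (limma adjusted p = 0.310). Without cKO replicate 2 it was 0.49 (limma adjusted p = 0.0938).

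Set against the other promoters of each library, Arc did not stand out upward in the cKO. In H3K4me3 Arc lay 0.66 and 0.97 above the median of the others in WT and 0.62 and 1.13 above it in the cKO, so the groups overlapped. The centred change was 0.13 ± 0.21 (SE), with limma adjusted p = 0.604. In H3K9/14ac Arc lay 1.04 and 1.19 above the median in WT and 0.90 and 1.05 above it in the cKO. The centred difference was -0.15 ± 0.12 (SE) with limma adjusted p = 0.314. Its sign turned with a pseudocount of 20 (0.12, limma adjusted p = 0.148). Centring called 4 promoters higher and 1 lower in H3K4me3 (22.2% and 5.56%), and 3 higher and 7 lower in H3K9/14ac (13.6% and 31.8%), Arc in none of these.

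In H3K27ac the distance of Arc above the median of the table fell, while by mean score it ranked 1 of 23 in WT and in the cKO. It lay 1.57 and 1.17 above the median of 20 other promoters in WT and 0.86 and 0.82 above it in the cKO, with no overlap. At how many other promoters these distances also did not overlap was not counted. The centred change was -0.54 ± 0.17 (SE), with limma adjusted p = 0.0215, and Arc was 1 of 6 promoters called lower (28.6%), against 5 called higher (23.8%). This is a change relative to the table, since the score of Arc itself rose. The centred call was lost without WT replicate 1 (-0.30, limma adjusted p = 0.160), without cKO replicate 1 (-0.59, limma adjusted p = 0.248) and without cKO replicate 2 (-0.49, limma adjusted p = 0.354). It was also lost with a pseudocount of 20 (-0.07, limma adjusted p = 0.464) and with the replicate number as a block (limma adjusted p = 0.0632). With each promoter's own spread it did not pass either (limma adjusted p = 0.221). A pseudocount of 1 kept it (-0.68, limma adjusted p = 0.0261).

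**Figure D4:**
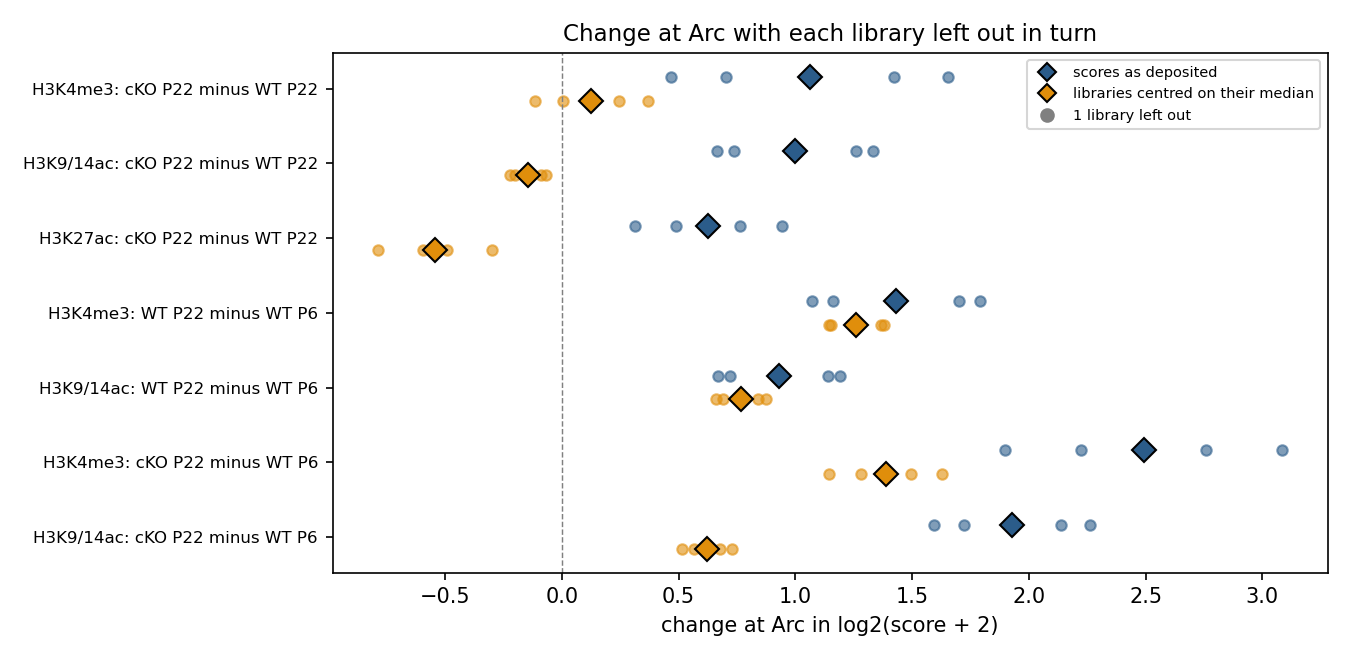
Change at Arc in log2(score + 2) (horizontal axis) in the 7 comparisons (vertical axis), from scores as deposited (blue) and from libraries centred on their median (orange). Diamonds use all libraries and small points leave out 1 library each. The centred change with age stays at or above 0.66 in both marks. The centred change in the cKO lies around 0 for H3K4me3 and below 0 for H3K9/14ac and H3K27ac. For H3K9/14ac it was -0.15 with all libraries and did not pass (limma adjusted p = 0.314), and its sign turned with a pseudocount of 20.

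The authors' mean curves around the TSS give a wider frame for the cKO change, although the genes behind them are not named. Averaged within 1000 bp of the TSS, the curves of the authors' deposited table were 1.61 ± 0.56 times as high in the cKO as in WT for H3K4me3, with the error taken from their error columns. They were 2.03 ± 0.48 times as high for H3K9/14ac and 2.16 ± 0.27 times for H3K27ac. At Arc the ratios were 2.34, 2.27 and 1.60, and single pairs of cKO and WT libraries gave 1.09 to 4.55, 1.39 to 3.65 and 1.15 to 2.37. The mean scores of the 22 other promoters with all scores gave 2.41, 2.81 and 2.85. The ratio of the mean curve lies inside the range at Arc in each mark, whereas for H3K27ac the ratio of the other promoters lies above that range, and a difference between Arc and the average promoter was not tested. All ratios would shift with the zero point of the score, which is not stated.

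Knockout mice of P22 were also set against WT mice of P6, which spans both age and genotype and shares libraries with the comparisons above. H3K4me3 at Arc was 8.11 times as high in the cKO as at P6, with pairs of libraries between 3.80 and 15.5 times. On the log2(score + 2) scale the change was 2.49 ± 0.42 (SE), with limma adjusted p = 1.6e-06. Of 18 promoters 9 were called higher (50%), the libraries did not overlap in that direction at 15 of 23 (65.2%), and the other 17 had a median change of 0.73. H3K9/14ac was 5.56 times as high, a change of 1.93 ± 0.27 (SE) with limma adjusted p = 8.9e-09, where 17 of 22 promoters were called higher (77.3%), 20 of 23 did not overlap (87%), and the other 21 had a median of 0.96. Arc ranked 3 of 18 and 2 of 22 by size, the latter behind Cda, the cytidine deaminase gene, at 2.30. With each promoter's own spread the H3K9/14ac change passed with limma adjusted p = 0.0479. Both calls at Arc passed without each library in turn, but the H3K4me3 call was lost with each promoter's own spread (limma adjusted p = 0.0786) and without a log scale (limma adjusted p = 0.0938). The H3K4me3 count of 9 promoters was 5 without P6 replicate 1, 5 without P6 replicate 2 and 4 without cKO replicate 2. At Arc both calls also passed after centring, with changes of 1.39 ± 0.21 (SE, limma adjusted p = 0.00471) and 0.62 ± 0.12 (SE, limma adjusted p = 0.00685), where 4 of 18 and 2 of 22 promoters were called higher (22.2% and 9.09%) and 5 and 9 lower (27.8% and 40.9%). The scores at Arc therefore ordered as WT P6, WT P22 and cKO P22 in both marks, with no overlap between neighbouring groups. Exact two-sided permutation tests of the Arc scores gave p = 0.333 in each of the 7 comparisons, the smallest value that 2 libraries against 2 allow.

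The change at Arc was not shown to differ between marks. For cKO against WT, the change in H3K4me3 exceeded that in H3K9/14ac by 0.06 (95% interval -0.97 to 1.10, limma interaction adjusted p = 0.949) and that in H3K27ac by 0.43 (-0.63 to 1.50, limma interaction adjusted p = 0.838). The change in H3K9/14ac exceeded that in H3K27ac by 0.37 (-0.37 to 1.12, limma interaction adjusted p = 0.995). With age the change in H3K4me3 exceeded that in H3K9/14ac by 0.50 (-0.58 to 1.58, limma interaction adjusted p = 0.667). The intervals are wide and leave room for differences of more than 1 log2 unit in each of the 4 tests.

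At P22 Arc was among the highest promoters of the table in all 3 marks. It was highest by H3K9/14ac in each of the 4 P22 libraries and by H3K27ac in 3 of 4, with Oprl1 above it at 8.86 in WT replicate 2. The promoters next to it were not separated from it by more than their spread. In WT the mean H3K9/14ac score was 8.34 ± 2.62 at Arc and 7.82 ± 1.93 at Timp2, a metalloproteinase inhibitor gene, and H3K27ac was 11.5 ± 4.10 and 9.13 ± 3.23 (SD, n = 2). In H3K4me3 Arc ranked 3 in WT, between Timp2 at 20.7 ± 10.1 and Pde1b at 14.9 ± 4.00. In the cKO the promoter listed as clcf stood at 51.6 ± 21.7 in H3K4me3, above Arc at 38.5 ± 22.3, and just below Arc in H3K9/14ac (18.2 ± 7.24) and H3K27ac (17.1 ± 3.20).

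Compared over all 16 libraries on the log2(score + 2) scale, the promoters nearest to Arc in level were Timp2, Syde1, a GTPase-activating protein gene, and Pde1b. Their mean absolute differences from Arc were 0.58, 0.60 and 0.62, against a median of 1.22 over the 22 other promoters with a score in every library. By the shape of the profile, Syde1 (Pearson r = 0.85) and As3mt, the arsenite methyltransferase gene (r = 0.83), were among the 3 most like Arc, against a median r of 0.57 and a range from -0.17 to 0.88. These values describe promoters that share the same libraries, the 3 marks differ in scale, and no test was made. Timp2 was nearest in level but ranked 10 of 22 by r (0.61).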

How the data were processed

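The members and lists were chosen with earlier results of these data known. Per the labels, cross-linked cerebellar chromatin was sonicated, immunoprecipitated and sequenced on an Illumina HiSeq; the submitters' processing notes name BWA and mm9. The authors deposited a score per promoter and library, with 2 decimals and values below 0, and mean score curves around the TSS; scaling, window and background steps are not stated. Columns named WT or KO without an age were read as P22. The symbol Arc and its chromosome matched the GRCm38.p6 RefSeq table; the numeric identifier beside it did not and was not used.

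For each mark, all libraries entered 1 limma fit (limma 3.58.1, R 4.3.3) on log2(score + 2), on promoters that scored 1 or more in 2 or more libraries of the mark, without covariates, with Benjamini-Hochberg adjustment and a threshold of 0.05. Limma pooled the spread completely over promoters in these main fits, so it treats promoters as independent. In the deposited scores, promoters of a library shifted together. Over promoters passing the filter, the median of replicate 2 minus replicate 1 was 0.37 to 0.72 in the H3K4me3 groups. It was 0.16 to 0.48 in H3K9/14ac, and -0.13 (WT) and 0.30 (cKO) in H3K27ac. The main p-values are therefore likely too small. In the centred fits the SE differed between promoters, so the spread was pooled only in part and the p-values of both kinds of fit rest on different pooling. Differences between marks were interaction terms of separate fits. Centring subtracted each library's median over promoters that pass the filter and have all scores. Fits were tested on simulated data with independent noise of a common spread. The simulated data held no shifts shared by the promoters of a library, so how far such shifts affect the p-values was not tested. Exact permutation tests used scipy 1.17.1 under Python 3.11.15. Depth is unknown. Beside Arc, promoters were named if adjacent to it by level or change, among the 3 most like it, or called with it where at most 5 were. The 2 inputs were not analysed here, and 1 promoter that stayed in all fits and counts is not reported here. Alternatives were pseudocounts of 1 and 20, no log, no filter, a replicate block, only the 2 groups compared, each promoter's own spread, centring, and each library left out.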

Additional observations from a re-analysis of the deposited data

How the results depend on the processing

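All changes are at Arc on the log2(score + 2) scale unless stated. With a pseudocount of 20, H3K4me3 changed by 0.64 in the cKO (limma adjusted p = 0.142) and 0.55 with age, and H3K9/14ac by 0.27 with age, none passing; centred values were then 0.12 for H3K9/14ac and -0.070 for H3K27ac in the cKO. Without a log scale the score differences of 22.1 (H3K4me3, cKO), 11.7 and 4.94 (H3K4me3 and H3K9/14ac, age) and 33.7 (H3K4me3, cKO against P6) did not pass. Without the filter the H3K4me3 changes of 1.06 in the cKO and 1.43 with age did not pass (limma adjusted p = 0.0832 and limma adjusted p = 0.0525), nor did the former in a fit of the 2 groups alone (1.06, limma adjusted p = 0.0513). With each promoter's own spread, 1.06, 1.00 and 0.63 (cKO, 3 marks), 1.43 and 0.93 (age), 2.49 (H3K4me3, cKO against P6) and the centred -0.54 (H3K27ac, cKO) missed the threshold. Centring gave 0.13, -0.15 and -0.54 for the cKO in H3K4me3, H3K9/14ac and H3K27ac. In these settings the cause was not tested.

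Leaving out 1 library gave 0.47 to 1.65, 0.66 to 1.33 and 0.31 to 0.94 for the cKO in H3K4me3, H3K9/14ac and H3K27ac, and 1.07 to 1.79 and 0.67 to 1.19 for age in H3K4me3 and H3K9/14ac. Centred, it gave -0.12 to 0.37 for H3K4me3, -0.22 to -0.07 for H3K9/14ac and -0.79 to -0.30 for H3K27ac in the cKO. Differences between marks ran from -0.53 to 0.66 for H3K4me3 against H3K9/14ac and from -0.16 to 1.03 for H3K4me3 against H3K27ac, from 0.04 to 0.71 for H3K9/14ac against H3K27ac, and with age from 0.14 to 0.86; none passed.

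Replicate numbers are not stated to mark a shared animal or day. Same-numbered libraries of 2 groups deviated together in H3K4me3 and H3K9/14ac (r from 0.16 to 0.70 over promoters) and oppositely in H3K27ac (-0.27). With the replicate number as a block, limma adjusted p at Arc was 2.0e-04, 3.4e-06 and 0.0409 for the cKO in the 3 marks, and the centred H3K27ac change of -0.54 missed the threshold; it changed no other call at Arc. It moved the calls of higher promoters from 9 to 15 (H3K4me3, cKO), from 2 to 4 and from 1 to 3 (age), and of lower ones from 3 to 6, from 2 to 4 and, for H3K4me3 in the cKO against P6, from 0 to 1. Crossing the numbers in H3K27ac, a choice made after seeing the data, gave 21 calls of higher promoters, against 18 with the block as numbered and 20 without one.

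Counts of higher promoters in the cKO fell from 9, 18 and 20 to 3, 11 and 8 with each promoter's own spread, and in H3K4me3 to 5 without WT replicate 1 or with a pseudocount of 20 and 0 without a log. In H3K9/14ac they fell to 11 without WT replicate 1. The centred values with age, and of the cKO against P6, passed in both marks under pseudocounts of 1 and 20, own spread, block and each library left out, all tried after seeing the data.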
